A study of Mus musculus with 2 samples.

Results

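The insulin-like growth factor (IGF) axis was followed in mouse implantation sites, the swellings of the pregnant uterus that contain a conceptus and its decidua, from Cbs null and control females. It comprised 10 genes: the ligands Igf1 and Igf2, the receptors Igf1r and Igf2r, and the binding proteins Igfbp2, Igfbp3, Igfbp4, Igfbp5, Igfbp6 and Igfbp7. Every probe set whose annotated gene symbol equalled one of these names was taken, which gave 23 of the 22626 probe sets on the array that are not controls. All 10 genes had at least 1 probe set, and no probe set carried a member's symbol together with another gene's. Of the 23 probe sets, 20 had a mean signal of both arrays at or above 70.5, the median over all probe sets, and these are said to have passed the signal filter.

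The study compared Cbs null females with control females, both C57Bl/6J X OLA129, 4 months old and on day 8 of pregnancy. Cbs encodes cystathionine beta-synthase, the enzyme that condenses homocysteine with serine and so takes homocysteine out of the methionine cycle. The Cbs null group had 1 Affymetrix array and the control group had 1 array. The labels name the genotype of the uterus. They give neither the genotype of the conceptuses, nor the Cbs alleles of the control, nor whether sites or animals were pooled. Because each genotype has a single array, differences have no replicate check and could not be tested, and each describes these 2 arrays.

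The IGF ligands are small peptides that act through the tyrosine kinase receptor encoded by Igf1r, which signals to growth through the PI3K and Ras pathways. The receptor encoded by Igf2r does not carry that signal and instead takes IGF2 to lysosomes, where it also delivers enzymes tagged with mannose phosphate. The binding proteins hold IGFs outside the cell, and either keep them from the receptor or release them near it when cut by proteases. In the mouse Igf1 is a product of uterine stroma, while Igf2 is made largely by the conceptus from the paternal allele and Igf2r is transcribed mainly from the maternal allele.

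The promoters of 4 members are shown because these genes mark out the pattern described below. Igfbp2 had the lowest ratio of any member probe set, Igfbp5 is its neighbour on chromosome 1, Igfbp4 had the most probe sets, and Igf1r had the highest ratio among the members' brightest probe sets. Each line gives the 250 bases before an annotated start, which for Igfbp2 is the first of 2, from RefSeq on GRCm38.p6, read 5′ to 3′ along the gene. Capitals mark GC boxes (GGGCGG, or CCGCCC on the other strand) and TATA boxes (TATAAA, or TTTATA on the other strand).
Igfbp2, chr1:72824230-72824479, plus strand: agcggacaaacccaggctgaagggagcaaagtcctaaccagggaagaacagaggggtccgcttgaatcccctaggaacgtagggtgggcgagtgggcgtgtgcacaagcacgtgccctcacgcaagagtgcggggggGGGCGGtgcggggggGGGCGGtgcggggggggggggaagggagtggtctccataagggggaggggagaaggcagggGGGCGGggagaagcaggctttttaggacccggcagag
Igfbp5, chr1:72874866-72875115, minus strand: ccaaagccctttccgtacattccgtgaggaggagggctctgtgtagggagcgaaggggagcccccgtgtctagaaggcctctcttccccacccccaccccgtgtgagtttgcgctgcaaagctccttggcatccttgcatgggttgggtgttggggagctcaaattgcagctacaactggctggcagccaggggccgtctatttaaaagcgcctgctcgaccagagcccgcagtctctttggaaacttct
Igfbp4, chr11:99040994-99041243, plus strand: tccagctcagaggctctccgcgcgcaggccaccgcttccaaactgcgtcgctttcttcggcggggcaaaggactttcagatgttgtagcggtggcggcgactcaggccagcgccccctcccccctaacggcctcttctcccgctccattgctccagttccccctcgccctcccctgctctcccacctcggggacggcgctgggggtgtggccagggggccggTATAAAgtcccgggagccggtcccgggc
Igf1r, chr7:67952007-67952256, plus strand: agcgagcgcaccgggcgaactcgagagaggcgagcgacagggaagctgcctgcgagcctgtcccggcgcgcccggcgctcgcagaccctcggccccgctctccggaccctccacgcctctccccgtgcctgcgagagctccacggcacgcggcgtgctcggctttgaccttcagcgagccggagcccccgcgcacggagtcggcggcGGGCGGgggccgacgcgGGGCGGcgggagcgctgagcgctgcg
Igfbp2 held 3 GC boxes, the nearest of which ended 31 bases before the first start, and the window of its second start held none. Igf1r held 2, the nearest ending 20 bases before its start. Igfbp5 had neither motif. Igfbp4 had a TATA box that began 28 bases before its start. Across 32851 annotated mouse starts, 32.7% of windows of the same length held a GC box and 12.4% a TATA box. The 10 genes had 14 annotated starts in all, of which 6 held a GC box and 2 a TATA box. The number of CpG dinucleotides in these 14 windows ran from 1, at the first of the 4 Igf2 starts, to 42 at Igf1r. Their median was 12.5, against a median of 6 over all windows. The other Igf2 starts held 10, 22 and 6 CpGs, Igf2r 27 and Igf1 5. The motifs describe these letters, and the arrays do not show which start was used.

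Signals are intensities on a linear scale, and ratios are log2 of Cbs null over control, so that a value above 0 means a higher signal on the Cbs null array. Over the 20 probe sets that passed the filter, 1 was at least 1.5-fold higher on the Cbs null array, where 2.59% of 10406 probe sets with a single gene passed that limit. None was at least 1.5-fold lower, where 1.65% of all did so. None was 2-fold apart in either direction, beside 0.625% higher and 0.346% lower among all probe sets. The counts at 1.5-fold are near these background shares. The median log2 ratio was 0.10 (quartiles -0.09 and 0.44), against 0.02 (quartiles -0.12 and 0.16) over all 10406 probe sets. Of the 20 member probe sets 13 were above 0 and 7 below, and 53.2% of all probe sets were above 0. Igfbp4 alone gave 6 of the 13. With each gene given by its brightest probe set, 6 of 10 genes were above 0, the median was 0.06, and ratios ran from -0.58 for Igfbp2 to 0.54 for Igf1r.

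**Figure D1:**
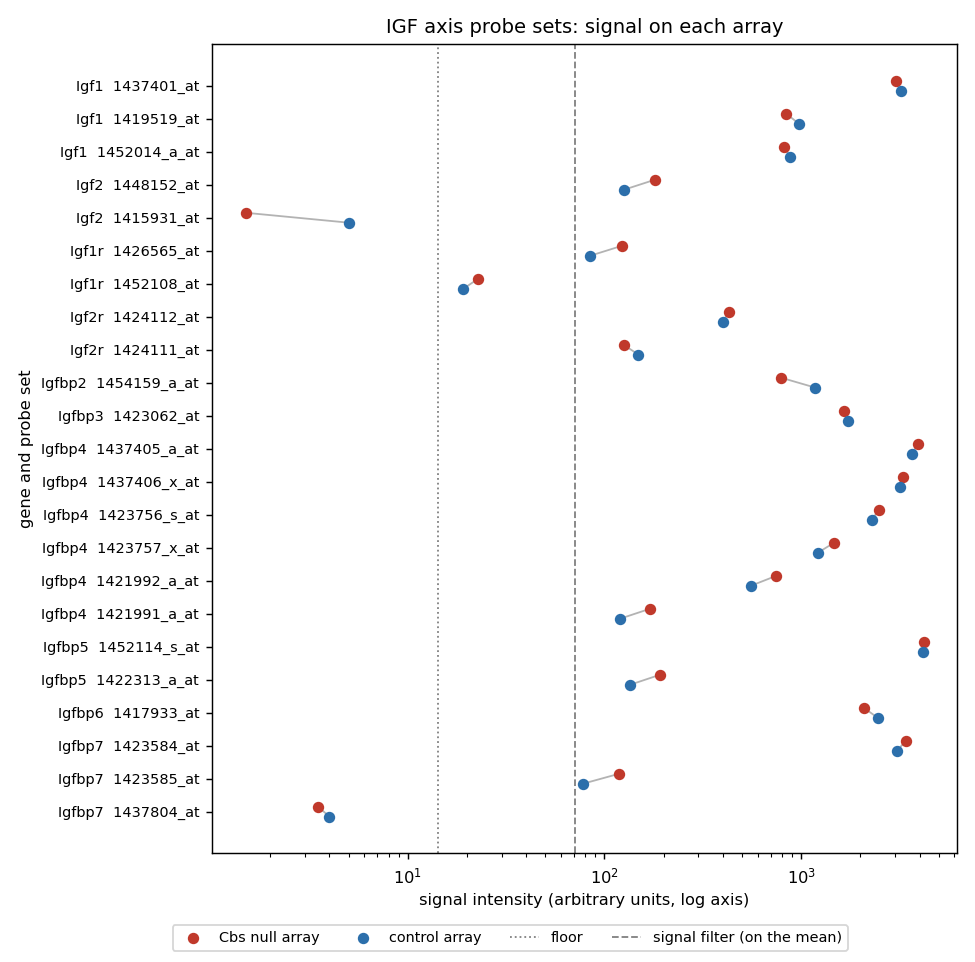
Signal intensity of each of the 23 probe sets (log axis), with the Cbs null array in red and the control array in blue; the dotted line is the floor of 14.3 and the dashed line the filter of 70.5, which was applied to the mean of both arrays. Paired points lie close together for most probe sets, and the widest gaps above the filter are those of Igfbp7 1423585_at, Igfbp2, Igf1r 1426565_at and Igf2 1448152_at.

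Igf1, the ligand of the uterine stroma, was slightly lower on the Cbs null array in all 3 of its probe sets. Probe set 1437401_at read 3030.1 in Cbs null and 3203.4 in control sites, a log2 ratio of -0.08. Probe set 1419519_at read 839.9 in Cbs null and 972.9 in control, a ratio of -0.21. The third, 1452014_a_at, read 815.1 in Cbs null and 877.4 in control, a ratio of -0.11. The SD over the 3 ratios was 0.07, and the largest of these differences is 1.16-fold. Among all probe sets past the filter, 14.6% had a ratio at or below that of 1419519_at, so none of the 3 lay at the edge of the distribution.

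Igf2, the growth factor of the conceptus, was higher on the Cbs null array in its only probe set past the filter. Probe set 1448152_at read 180.1 in Cbs null and 125.9 in control, 1.43-fold higher, with a log2 ratio of 0.52. Of all probe sets in the same signal tertile, 3.19% had a ratio at least as high. Its other probe set, 1415931_at, read 1.5 in Cbs null and 5.0 in control. Both values are below the floor of 14.3, the 25th percentile of all signals, so they have no order and no ratio. These are whole sites, in which more or fewer cells of a type cannot be told apart from more or less RNA per cell.

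Some markers of the conceptus were higher on the same array as Igf2, and others were not. The signals of 6 trophoblast genes summed to 830.7 in Cbs null and 356.1 in control. Single genes of that list ran from 2.4 to 598.7 in Cbs null and from 1.8 to 228.1 in control. Of these 6 genes 2 passed the filter, Tpbpa at 1.39 and Prl2b1 at 1.23, and Cdx2 was under the floor on both arrays. Ascl2, Hand1 and Tfap2c, under the filter, had 0.00, -0.13 and 1.13. The 3 embryonic globins, Hba-x, Hbb-bh1 and Hbb-y, summed to 5408.8 in Cbs null and 2906.3 in control, with single values of 379.4 to 4490.3 in Cbs null and 197.4 to 2494.9 in control. The 7 yolk sac endoderm genes summed to 1085.8 in Cbs null and 626.8 in control. Within that list single values ran from 4.0 to 523.2 in Cbs null and from 3.2 to 522.0 in control, and Apoa4 and Apob were under the floor on both. Most of that difference was Afp, the fetal plasma protein, at 384.6 in Cbs null and 24.7 in control. Ttr, which also passed the filter, read 113.6 in Cbs null and 33.0 in control, a ratio of 1.78. Rbp4, the retinol carrier, read 523.2 in Cbs null and 522.0 in control. Apoa1 and Hnf4a, under the filter, had 1.07 and 0.00. The part of these tissues in the Igf2 difference was not tested.

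Igf1r, the signalling receptor, was also higher on the Cbs null array. Probe set 1426565_at read 122.9 in Cbs null and 84.8 in control, 1.45-fold higher, with a log2 ratio of 0.54. In its signal tertile, the dimmest, 5.10% of probe sets had a ratio at least as high. The other Igf1r probe set, 1452108_at, fell short of the filter and read 22.8 in Cbs null and 19.2 in control, a ratio of 0.25. Both Igf1r ratios are above 0, and the second rests on a signal close to the floor.

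The probe sets of Igf2r, the scavenger of IGF2, did not share a direction. Probe set 1424112_at read 430.6 in Cbs null and 399.2 in control, a ratio of 0.11. Probe set 1424111_at read 125.1 in Cbs null and 148.8 in control, a ratio of -0.25. Their difference of -0.36, dimmer minus brighter, compares with an SD of 0.30 between the 2 brightest probe sets of a gene over the whole array. No direction can be given for Igf2r. The ligands and receptors together had 7 probe sets past the filter, with 3 above 0, 4 below and a median of -0.08. Igf1 alone gave 3 of the 4 below 0. By brightest probe set Igf1 had -0.08, while Igf2, Igf1r and Igf2r had 0.52, 0.54 and 0.11.

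Igfbp2, a carrier of both IGFs that can also bind integrins, had the lowest ratio of the axis. Its single probe set, 1454159_a_at, read 791.6 in Cbs null and 1179.9 in control, 1.49-fold lower, with a log2 ratio of -0.58. The value lies just inside the 1.5-fold limit and outside the range of -0.46 to 0.47 that held 95% of probe sets in the brightest tertile. In that tertile 1.23% of probe sets had a ratio at or below it. The gene next to it, Igfbp5, had a ratio of 0.02 in its brightest probe set.

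Igfbp6, which prefers IGF2 over IGF1, and Igfbp3 were the other binding proteins with a ratio below 0. Igfbp6 read 2077.8 in Cbs null and 2442.5 in control, a ratio of -0.23, and 11.0% of the brightest tertile had a ratio at or below it. Igfbp3, which carries IGFs in the circulation in a complex with the acid-labile subunit, read 1655.0 in Cbs null and 1734.9 in control, a ratio of -0.07. Each of the 2 genes rests on a single probe set.

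Igfbp4, an inhibitory binding protein that is cut by the protease PAPP-A, was above 0 in all 6 of its probe sets. The brightest, 1437405_a_at, read 3915.6 in Cbs null and 3665.8 in control, a ratio of 0.10. The next in brightness, 1437406_x_at and 1423756_s_at, had ratios of 0.05 and 0.12. Probe set 1423757_x_at read 1468.5 in Cbs null and 1217.4 in control, a ratio of 0.27. The 2 dimmest had the highest ratios. Probe set 1421992_a_at read 748.5 in Cbs null and 557.0 in control, a ratio of 0.43, and 1421991_a_at read 170.5 in Cbs null and 120.3 in control, a ratio of 0.50. The median over the 6 was 0.20 with an SD of 0.19. All 6 have an ID suffix (a, s or x) that marks probe sets which may match several transcripts, and they read the same gene, so they are not 6 independent measurements.

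Igfbp5, which binds extracellular matrix as well as IGFs, had a ratio of 0.02 in probe set 1452114_s_at, at 4186.0 in Cbs null and 4140.4 in control. Its other probe set, 1422313_a_at, read 191.6 in Cbs null and 135.5 in control, a ratio of 0.50. Igfbp7, a relative of the classical binding proteins with weak affinity for IGFs that is found around blood vessels, gave a similar split. Probe set 1423584_at read 3420.5 in Cbs null and 3060.3 in control, a ratio of 0.16. Probe set 1423585_at read 118.8 in Cbs null and 78.0 in control, 1.52-fold higher, with a ratio of 0.61. That is the 1 member probe set past the 1.5-fold limit, and it was under 1.5-fold when the arrays were quantile normalized (0.57), when a trend on signal was removed (0.57) or when a pseudocount replaced the floor (0.46). The third Igfbp7 probe set, 1437804_at, read 3.5 in Cbs null and 4.0 in control, both below the floor.

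**Figure D2:**
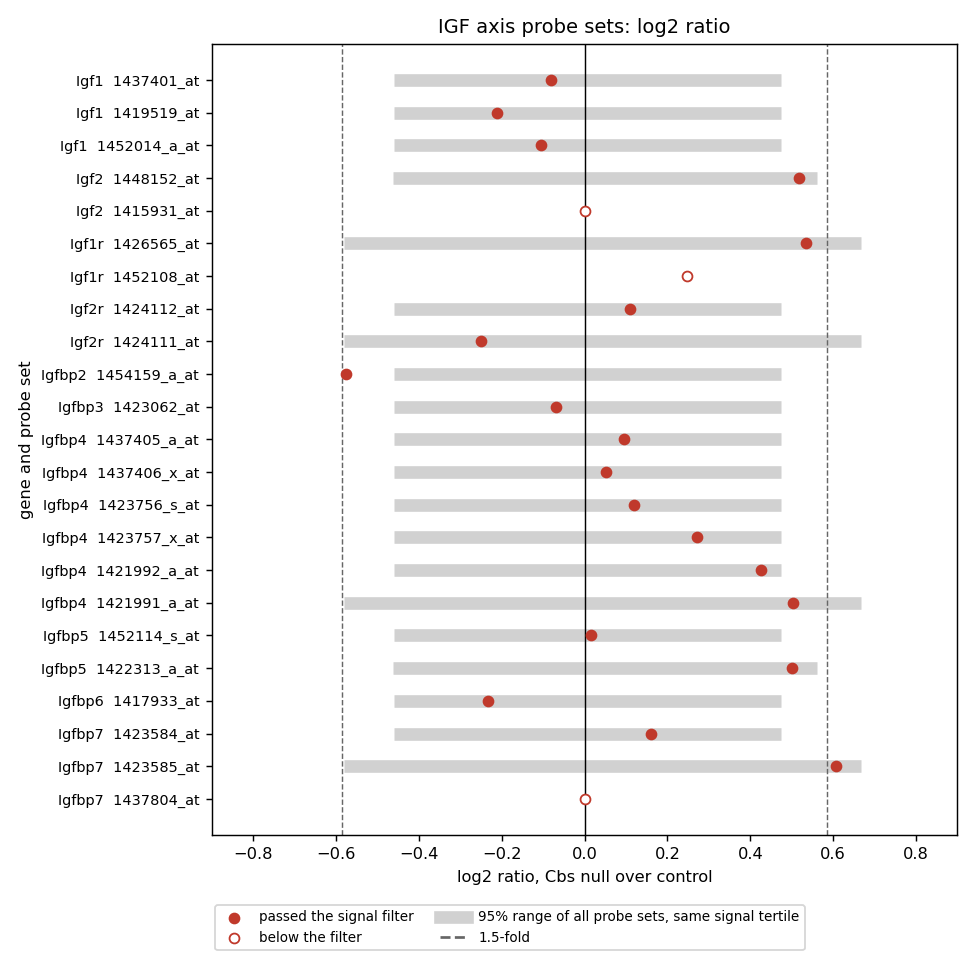
Log2 ratio of Cbs null over control for each of the 23 probe sets, filled where the probe set passed the signal filter and open where it did not (at 0 where both signals are below the floor). Grey bars span 95% of all probe sets in the same signal tertile, dashed lines mark 1.5-fold, and only Igfbp2, at -0.58, lies outside its grey bar.

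Endothelial markers, listed because Igfbp7 and Igfbp3 are products of vessels, had ratios below 0 in 6 of 9 genes, where Igfbp3 was also below 0, at -0.07, and both Igfbp7 probe sets past the filter were above 0. Of all genes past the filter 55% were above 0. The 9 genes summed to 3403.2 in Cbs null and 3779.3 in control, with single values of 95.5 to 1226.5 in Cbs null and 83.6 to 1408.3 in control, and their median ratio was -0.06. Decidual stroma markers, all 9 of which passed the filter, summed to 11513.1 in Cbs null and 12620.4 in control with a median of 0.02. Single members lay far from that median, and 2 of the 9 were at least 1.5-fold lower. Bmp2, a growth factor of decidualization, read 258.0 in Cbs null and 597.0 in control (-1.21), Tdo2, which degrades tryptophan, had -0.84, and the decidual prolactin Prl8a2 had 0.52. Smooth muscle genes, 7 of 7 past the filter and with Des in both lists, had a median of -0.04. The labelled tissue was therefore represented by its stroma, muscle and vessel markers on both arrays, while none of 5 genes of embryonic mesoderm and nervous system passed the filter. Uterine epithelial genes summed to 23284.2 in Cbs null and 6614.0 in control over 12 genes, with single values of 57.5 to 7620.0 in Cbs null and 42.1 to 2220.1 in control. The sum was carried by the secreted products Spink1, Prss28 and Prss29, at 3.13, 2.86 and 1.78. Of the 11 epithelial genes past the filter 10 were above 0, and their median was 0.64. At least 1.5-fold higher were 6 of the 11 (background 2.46% of 7079 genes). Among the 6 was Cldn3, at 0.77 in its brightest probe set, whose 4 probe sets past the filter ran from 0.06 to 0.77. The keratins Krt8 and Krt18 had 0.55 and 0.64, and Cdh1, E-cadherin, was the 1 gene below 0, at -0.02. Natural killer cell genes summed to 6113.3 in Cbs null and 13649.6 in control over 9 genes, with single values of 61.1 to 1857.0 in Cbs null and 56.4 to 4720.7 in control. There 7 of the 8 genes past the filter were at least 1.5-fold lower (background 1.33% of 7079 genes). These were the 5 granzymes, with ratios from -1.46 to -0.77, Prf1, at -0.96, and the receptor gene Il2rb. Il2rb had -0.85 in its brighter probe set and -0.32 in the other. The receptor genes Klrk1 and, under the filter, Ncr1 had 0.05 and 0.26. Macrophage genes summed to 6624.5 in Cbs null and 4783.7 in control over 8 genes. All 8 passed the filter and 2 were at least 1.5-fold higher (background 2.46% of 7079 genes). Adgre1, at -0.005, was the 1 gene below 0. Fat cell genes summed to 4117.3 in Cbs null and 2442.4 in control over 5 genes. The 3 past the filter were all at least 1.5-fold higher. Fabp4, the brightest, read 2711.8 in Cbs null and 1549.2 in control (0.81), and its other probe set past the filter had 0.36. Lep was under the floor on both arrays. The part of these 4 cell types in the IGF axis values was not tested.

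Ratios of the axis differed with the brightness of the probe set. The axis had 6 probe sets in the 2 dimmer tertiles of signal, and 5 of them, from 5 genes (Igf2, Igf1r, Igfbp4, Igfbp5 and Igfbp7), had ratios between 0.50 and 0.61. In signal units their differences were 38.1 to 56.1. Among all 7069 probe sets of those tertiles the median was 0.03, and 4.68% had a ratio at or above the lowest of the 5. This grouping was made after the values were seen. The 14 member probe sets in the brightest tertile had a median of 0.03, with values from -0.58 to 0.43. The median over all probe sets of that tertile was -0.01. Of the 5 members with several probe sets past the filter, Igfbp4, Igfbp5 and Igfbp7 had the higher ratio in the dimmest probe set, by 0.41, 0.48 and 0.45. Igf1 and Igf2r had the lower ratio there, by -0.03 and -0.36. Across all 2284 such genes the dimmest probe set had the higher ratio in 48.7%, with a median difference of -0.01. Gaps larger than that of Igfbp5 in size were found in 9.85% of these genes.

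**Figure D3:**
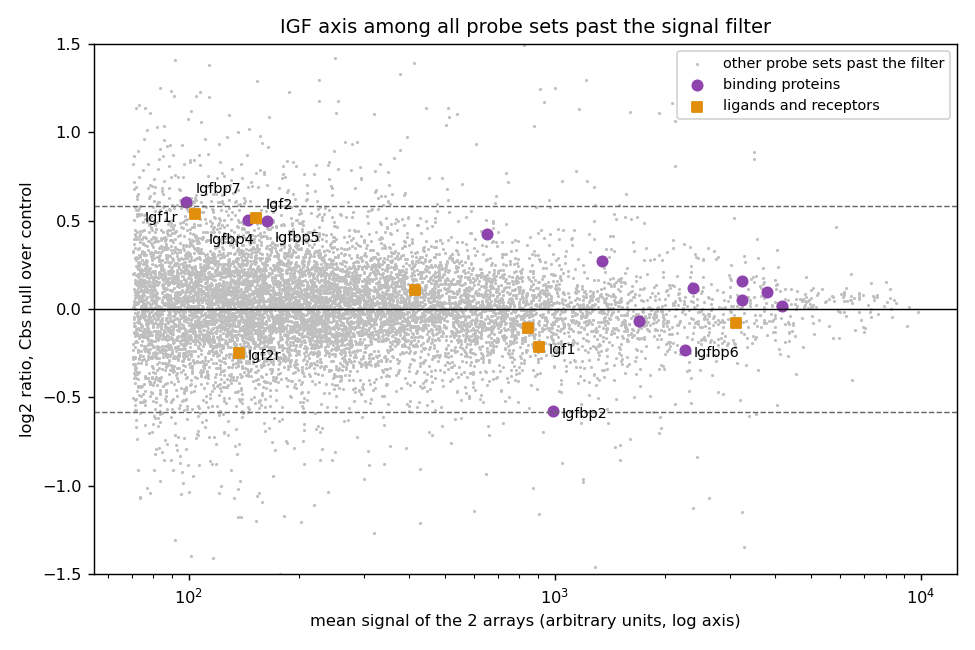
Log2 ratio of Cbs null over control against mean signal (log axis) for the probe sets past the filter, with binding proteins as purple circles, ligands and receptors as orange squares and all other single-gene probe sets in grey; dashed lines mark 1.5-fold, and 19 grey points lie beyond the vertical axis. Of the 6 member probe sets in the 2 dimmer tertiles 5 sit between 0.50 and 0.61, and Igfbp2 is the lowest member at -0.58.

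The wider pathway was examined through 7 lists with 72 genes, of which 55 had a probe set named for that gene alone and 34 passed the filter in their brightest probe set. Of the 34, 2 were at least 1.5-fold higher (background 2.46% of 7079 genes) and 0 at least 1.5-fold lower (background 1.33%). The median log2 ratio was 0.016, against 0.023 over all genes, and 19 of 34 were above 0, where 55% of all genes were. The lists therefore stood near the background in these counts.

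Among the proteases and partners of the binding proteins, 4 of 10 genes passed the filter and 1 was over the limit. Htra3, a secreted serine protease related to Htra1 and known from implantation sites, read 1797.6 in Cbs null and 1197.3 in control, a ratio of 0.59 and 1.501-fold higher. It no longer passed the limit when ratios were centred on their median or a pseudocount was used. Htra1, which cuts IGF binding proteins, had a ratio of 0.07, and Ghr, the growth hormone receptor that drives Igf1 in liver, 0.21. Adam12, a metalloprotease that cuts IGFBP3 and IGFBP5, read 509.2 in Cbs null and 699.3 in control, a ratio of -0.46. Its other probe set past the filter had -0.23. Pappa, which encodes PAPP-A, read 59.5 in Cbs null and 37.8 in control, under the filter. Stc1 and Stc2, the stanniocalcins that inhibit PAPP-A, were under it too. Igfbp1, a classical binding protein that is a decidual product in humans, read 14.8 in Cbs null and 6.5 in control, near or below the floor. Igfals, the acid-labile subunit, was below the floor on both arrays.

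Below the receptors no gene that passed the filter was past 1.5-fold in its brightest probe set. Of the insulin receptor family, its ligands and adaptors, 5 of 12 genes passed the filter with a median of 0.00. The highest was Gab1, a docking adaptor, with ratios of 0.46 and 0.51 in its 2 probe sets past the filter. Grb10, an imprinted adaptor that dampens insulin and IGF signalling, read 1299.8 in Cbs null and 1456.5 in control, a ratio of -0.16. Irs1, the docking protein of both receptors, read 524.1 in Cbs null and 441.7 in control, a ratio of 0.25. Insr, the insulin receptor, was under the filter, at 9.8 in Cbs null, below the floor, and 14.6 in control, close to it. Of the PI3K, Akt and mTOR genes 14 of 15 passed, with a median of 0.09. Pik3r1, the regulatory subunit of PI3K, had a ratio of 0.14 in its brightest probe set, but the highest of its 3 probe sets past the filter had 0.65, over 1.5-fold. Rheb, the GTPase that activates mTOR, had a ratio of -0.09. Eif4ebp1, a translation repressor that mTOR phosphorylates, had -0.08 in its brightest probe set and 0.10 in the other past the filter. The highest of that list by brightest probe set were Foxo3, a transcription factor that Akt holds in check, at 0.46, and Ddit4, a stress-induced inhibitor of mTOR, at 0.45. Of the Ras and MAPK genes 3 of 4 passed, with Map2k2 at -0.03 and Map2k1 at -0.31.

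The proteins that share the IGF-binding domain outside the classical family had 5 of 8 genes past the filter and 1 past the limit. Ccn3, a matricellular protein, read 155.4 in Cbs null and 91.0 in control, a ratio of 0.77 or 1.71-fold higher, and its other probe set past the filter had 0.87. Its relatives Ccn1 and Ccn2, early response genes of connective tissue and vessels, had ratios of -0.46 and -0.33. Ccn4 had 0.32 in its brightest probe set and 0.01 in the other past the filter. The sorting genes for mannose phosphate, the other ligand of the Igf2r product, had 3 of 4 genes past the filter. M6pr, the second receptor of that route, had a ratio of -0.24, and Gga2, an adaptor for both receptors, 0.14. Of the IGF2 mRNA-binding proteins, Igf2bp1 and Igf2bp3 were measured and both were below the floor on both arrays.

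**Figure D4:**
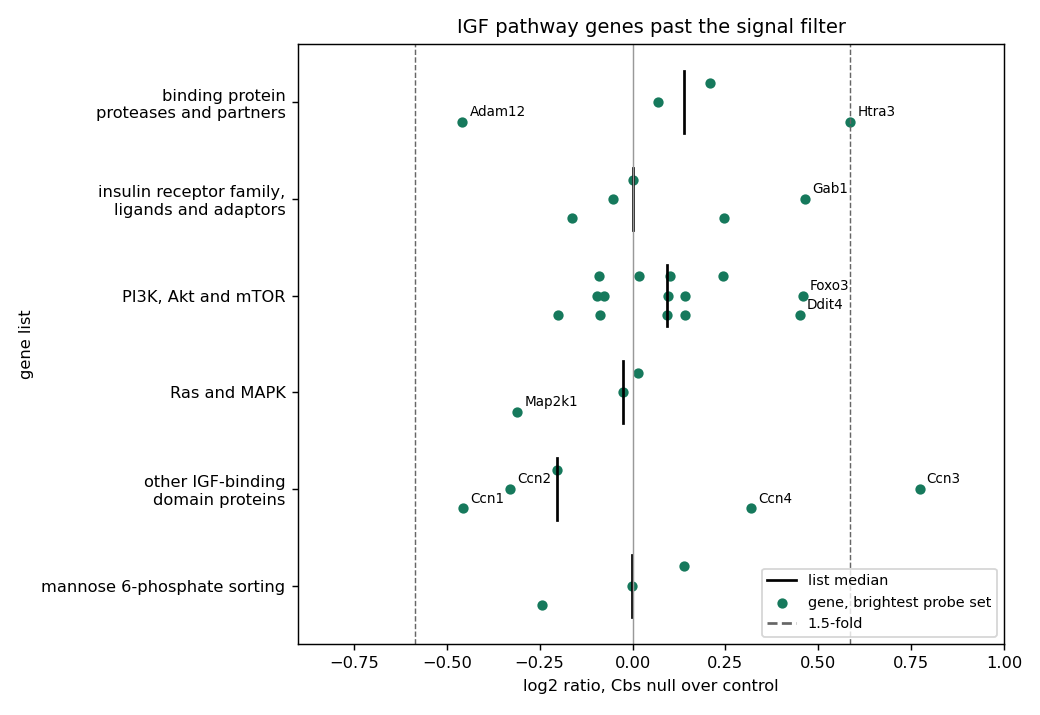
Log2 ratio of Cbs null over control for the 34 wider pathway genes past the signal filter, 1 point per gene at its brightest probe set, with black bars at list medians and dashed lines at 1.5-fold. Htra3, at 0.59, and Ccn3, at 0.77, are the 2 genes past a dashed line, both higher on the Cbs null array.

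Across the whole array, the log2 signals of the 11315 probe sets past the filter correlated at 0.981 between the arrays (Pearson, across probe sets, which are not replicates). The repeat measure within these arrays was the ratio of another probe set of the same gene. The SD of 0.30 between the 2 brightest probe sets was taken over 2284 genes, of which 62.0% had the same sign in both. Divided by the square root of 2, that SD gives a spread of 0.21 for the ratio of a single probe set. Cbs itself gave 23.8 and 22.3 in its 2 probe sets in Cbs null and 30.3 and 29.9 in control, all under the filter. Where the deletion lies relative to these probes is not stated, so they give no check on genotype.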

How the data were processed

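Biotinylated cRNA from 2 microg of total RNA of dissected implantation sites was run on Affymetrix mouse arrays (protocols in the labels). Each deposited value is a linear intensity for a probe set on an array, and the submitters' processing notes name GCOS 1.4. Its algorithm, any detection calls and the build used to design the probe sets are not given in these sources. The 2% trimmed means were 200.08 on both arrays, so no further scaling was applied.

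Of 22690 probe sets 64 controls were set aside. Genes came from the platform annotation, and 20351 of 20380 single symbols matched a RefSeq table of GRCm38.p6 by identifier. Signals under 14.3 (25th percentile) were raised to it before log2 ratios were taken. The filter was a mean signal of at least 70.5 (50th percentile), and tertiles of mean signal were taken above it. For wider lists a gene was given by its brightest probe set. No test was made, since each genotype has 1 array, and that number sets the precision. Gene lists, members and limits were chosen with earlier results of these data known. Named pathway genes are those at least 1.5-fold apart or, in a list without any, the 2 brightest. Adam12, Htra1, Ghr, Pappa, Stc1, Stc2, Igfbp1, Igfals, Insr, Gab1, Pik3r1, Foxo3, Ddit4, Ccn1, Ccn2, Ccn4, Igf2bp1 and Igf2bp3 were picked after their values were seen. Alternatives were quantile normalization, median centring, loess (span 0.3), a pseudocount of 32, a floor at percentile 10 or 40, a filter at percentile 25 or 75 or none, no multi-transcript probe sets, and the median over probe sets. Scripts ran in Python 3.11 and were tested on simulated data.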

Additional observations from a re-analysis of the deposited data

How the results depend on the processing

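No paired analysis was possible because each genotype has 1 array, and for the same reason no array could be left out. Under normalization, floor and pseudocount alternatives no member probe set that passed the filter changed sign, and 132 of 138 such values for all 23 probe sets stayed within the spread between probe sets (0.21) and on the same side of 1.5-fold. The count of axis probe sets at least 1.5-fold higher was 0 rather than 1 with quantile normalization, loess, a pseudocount or a filter at the 75th percentile. The count lower was 1, Igfbp2 at -0.59, with median centring. The axis median was 0.034 with a filter at the 75th percentile, against 0.002 over all probe sets. Without multi-transcript probe sets it was 0.021, against 0.023 over all. For pathway genes the count higher was 1 with median centring, a pseudocount, a filter at the 75th percentile or no multi-transcript probe sets. It was 5, with 1 lower, with a filter at the 25th percentile or none, which admit dimmer genes. The pathway median was 0.10 without multi-transcript probe sets and 0.063 with the median over probe sets. Otherwise the cause of these moves was not tested. Igf2, Igf1r and the dim probe sets of Igfbp4, Igfbp5 and Igfbp7 had mean signals below the brightest tertile. The part of background signal in their ratios was not tested.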

Other observations

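Some neighbouring genes of the axis had like ratios on these arrays and others did not. Igfbp2 lies between Rpl37a, a ribosomal protein gene, and Igfbp5 on mouse chromosome 1. Rpl37a read 7268.0 in Cbs null and 7279.5 in control, a log2 ratio of -0.00, beside -0.58 for Igfbp2 and 0.02 for the brightest Igfbp5 probe set. Igfbp3 and Igfbp1 are neighbours on chromosome 11, and the second of them gave almost no signal. Igfbp4 lies next to Top2a, the topoisomerase of dividing cells, which read 578.4 in Cbs null and 646.7 in control, a ratio of -0.16. Igfbp6 lies next to Spryd3, with a ratio of -0.35 beside -0.23 for Igfbp6. Igfbp7 lies next to Polr2b, a subunit of RNA polymerase II, with 0.17 beside 0.16 for the brightest Igfbp7 probe set.

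In the imprinted region of Igf2 on chromosome 7, Ins2, an insulin gene, was below the floor on both arrays. Mrpl23, a mitochondrial ribosomal protein gene on the other side, read 574.8 in Cbs null and 474.5 in control, a ratio of 0.28, beside 0.52 for Igf2. The antisense transcript Igf2os read 13.1 in Cbs null and 22.6 in control, under the filter and on the Cbs null array below the floor. Igf1os, antisense to Igf1, was below the floor on both arrays.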
